A study of Mus musculus with 50 samples.

Results

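RNA levels in the hypothalamic paraventricular nucleus (PVN) 8 h after forced swimming changed differently in pools of C57BL/6J and DBA/2J mice for a small set of clones, and that strain difference is described here. The strain difference of a clone is its log2 stress ratio (8 h stressed over non-stressed pool) in DBA/2J minus the same ratio in C57BL/6J, and clones are reported by this difference and not by either response alone. It was taken from 20 of the 50 arrays of the study, 10 comparing the 8 h pool with the non-stressed pool of DBA/2J and 10 doing the same for C57BL/6J, and all 22824 cDNA clones that were not control spots were tested. Of these clones 137 (0.6%) passed the thresholds given below, 90 lower and 47 higher in DBA/2J by the labelled dyes, and 102 of them, from 96 genes, could be given a gene symbol.

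All animals were male inbred mice of 3 to 5 months, housed singly and not genetically modified. Stressed animals swam for 5 min in water and were killed 8 h later, non-stressed animals did not swim, and both kinds were killed at the same time of day. The punched tissue held the PVN and adjacent tissue. RNA of 6 animals made 1 pool per condition, the pools were amplified in 2 rounds, and every array of a comparison carried that same pair of pools, 5 arrays in each dye orientation. The errors and p-values given are thus those of labelling and hybridisation. A called clone differs between these pools of RNA, and how single animals varied is not known.

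The PVN holds the neurosecretory neurons that release corticotropin-releasing hormone, vasopressin and oxytocin, and it starts the hormonal response to stress that ends in glucocorticoid release from the adrenal gland. Glucocorticoids act back on the nucleus through a receptor that is kept able to bind hormone by Hsp90 and its co-chaperones. C57BL/6J and DBA/2J are common inbred strains that differ in anxiety-related behaviour and in their reaction to stressors. The comparison asks which transcripts followed a different course after the same stressor in the 2 strains.

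Directions follow the labelled dyes, so that a negative difference means a lower stress ratio in DBA/2J. The processed table of the authors has the same orientation as the labelled dyes on all arrays, whereas the signs printed for folds in the published tables are opposite. The direction of the study's PCR for App in DBA/2J, which was not analysed here, is opposite to the labelled dyes as well. For that strain the paper also reports a rise by PCR of a G protein alpha inhibiting subunit at the earlier time. It further reports a rise by in situ hybridisation. These rises have the direction of the printed folds and were not analysed here either. The files did not settle which direction holds. With the sign turned every "higher" below becomes "lower" and the reverse, while sizes, errors and counts stay as they are.

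The strongest differences were carried by 3 genes, each by at least 2 clones. Ptges3 encodes p23, a co-chaperone of Hsp90 that stabilises steroid receptor complexes. Adam10 encodes a membrane metalloprotease that sheds surface proteins and acts as an alpha-secretase on the amyloid precursor protein. Insig1 encodes a protein of the endoplasmic reticulum that holds back the activation of sterol response element-binding proteins when sterols are plentiful. On the called clones of these genes the mean stress ratio was above 0 in C57BL/6J and below 0 in DBA/2J. The promoters of these genes are shown because they led the difference, and that of Idh3b, which encodes the beta subunit of NAD-dependent isocitrate dehydrogenase, because it led the opposite direction among genes with a second clone of the same sign. Each sequence is the 250 bases before the RefSeq transcription start in GRCm38.p6, written in the direction of the gene. Capitals mark CACGTG, the palindromic E box, and CCAAT or its complement ATTGG.
Ptges3, chr10:128058732-128058981, plus strand: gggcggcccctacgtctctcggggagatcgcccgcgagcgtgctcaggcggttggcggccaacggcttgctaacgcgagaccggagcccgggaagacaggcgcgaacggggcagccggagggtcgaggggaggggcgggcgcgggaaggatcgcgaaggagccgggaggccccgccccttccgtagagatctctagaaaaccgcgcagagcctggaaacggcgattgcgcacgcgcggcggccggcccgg
Adam10, chr9:70678732-70678981, plus strand: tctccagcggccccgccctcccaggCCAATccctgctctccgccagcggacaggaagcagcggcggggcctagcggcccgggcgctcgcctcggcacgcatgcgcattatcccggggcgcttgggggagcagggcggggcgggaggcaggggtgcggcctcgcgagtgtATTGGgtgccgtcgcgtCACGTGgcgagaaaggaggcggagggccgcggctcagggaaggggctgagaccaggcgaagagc
Insig1, chr5:28071162-28071411, plus strand: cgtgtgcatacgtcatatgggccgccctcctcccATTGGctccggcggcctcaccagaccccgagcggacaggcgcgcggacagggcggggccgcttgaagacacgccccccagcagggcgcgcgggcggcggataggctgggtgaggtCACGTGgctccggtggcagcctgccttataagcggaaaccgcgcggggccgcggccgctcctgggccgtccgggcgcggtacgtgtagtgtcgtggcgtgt
Idh3b, chr2:130284452-130284701, minus strand: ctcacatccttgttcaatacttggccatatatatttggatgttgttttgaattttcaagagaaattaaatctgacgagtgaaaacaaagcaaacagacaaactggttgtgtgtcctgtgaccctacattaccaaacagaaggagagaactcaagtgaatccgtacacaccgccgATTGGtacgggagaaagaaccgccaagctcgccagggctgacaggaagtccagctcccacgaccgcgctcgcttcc

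The letters CACGTG stood 64 bases before the start in Adam10 and further upstream in Insig1, and were not in the windows of Ptges3 and Idh3b. CCAAT, read on both strands, occurred in Adam10, Insig1 and Idh3b. Over all 27025 promoters of the RefSeq table cut to the same length, CACGTG was in 6.05% and CCAAT in 34.5%, and over the 4996 of these genes with a clone on the array in 8.23% and 36.0%. Promoters were matched for 78 of the genes with a called clone. CACGTG was in 8 of 54 genes with a lower clone (14.8%) and in 4 of 24 with a higher clone (16.7%), and CCAAT in 22 (40.7%) and 8 (33.3%). The motifs were chosen after these sequences had been seen, and the shares are a description without a test. GGGCGG, the GC box, was in 37 of the 54 (68.5%) and 11 of the 24 (45.8%) against 58.8% of array genes. TGACGTCA, the cyclic AMP response element, was in 0 of the 54 and 0 of the 24 (2.98% of array genes), and GAANNTTC, a heat shock element core, in 3 and 1 (4.92% of array genes). The full palindrome of the glucocorticoid response element was in 0 of the 78 and in 1 of all 27025 promoters.

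The called clones were few and leaned to one side. Clones were called at a difference of 0.50 or more on the log2 scale, in either direction, together with a limma p adjusted by Benjamini-Hochberg under 0.05 over all clones. The 137 called clones were 0.6% of those tested, the lower ones 0.394% and the higher ones 0.206%, while 2374 clones had an unadjusted p under 0.05. Over all clones the median difference was 0.00 and the median standard error (SE) 0.27. All 137 had the same sign in both dye orientations. In 90 of the 137 the ratios of the 10 DBA/2J arrays did not overlap those of the 10 C57BL/6J arrays, 55 lower and 35 higher, a separation that 0.627% of all clones showed, 0.351% below and 0.276% above.

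Array quality differed between the comparisons. On the 10 DBA/2J arrays the 95th percentile of the empty spots lay at 1426 to 2879 intensity units in Cy5 and 2136 to 4367 in Cy3, against 318 to 1193 and 494 to 1265 on the C57BL/6J arrays. These values are without background subtraction. In both dyes 5.32% to 8.07% of clones passed that percentile on a DBA/2J array and 12.4% to 28% on a C57BL/6J array. For single clones the local background was first subtracted from clones and empty spots alike. A clone is called above the empty spots below where it then passed their 95th percentile in both dyes. The arrays of the strains were scanned on different days, 3 days for DBA/2J and 2 for C57BL/6J with none shared, so that scan day and strain cannot be told apart.

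**Figure D1:**
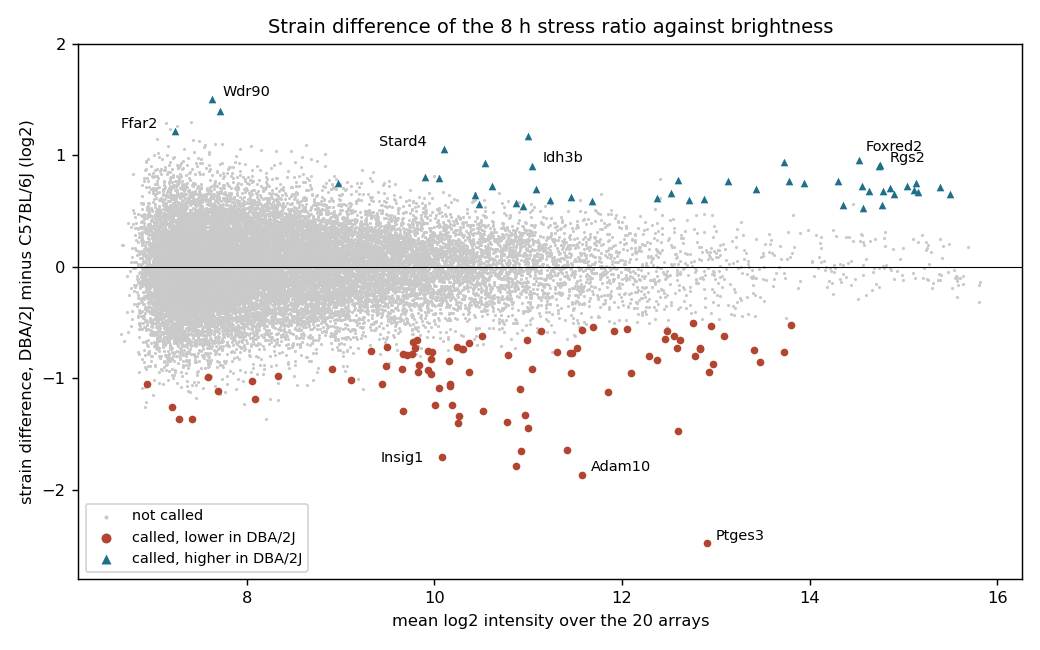
Strain difference of the 8 h stress ratio (log2, DBA/2J minus C57BL/6J) of each of 22824 clones against its mean log2 intensity over the 20 arrays. Grey points were not called, red circles were called lower and blue triangles higher in DBA/2J. The lower clones reach -2.48 (Ptges3) at intermediate brightness, while 18 of the 47 higher clones lie at a mean log2 intensity of 14 or more, where 0 lower clones lie.

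Ptges3 showed the strongest strain difference on the array. Its brightest clone had stress ratios of 1.33 to 1.83 on the C57BL/6J arrays (median 1.64) and of -1.06 to -0.73 on the DBA/2J arrays (median -0.87). All C57BL/6J arrays were above 0, all DBA/2J arrays below 0, and the groups did not overlap. The difference was -2.48 ± 0.12 (SE, 10 arrays against 10, limma adjusted p = 9.4e-11), a 5.59-fold lower ratio in DBA/2J. Its second clone ran from 0.32 to 1.05 in C57BL/6J (median 0.89) and from -0.89 to -0.52 in DBA/2J (median -0.68). These groups were apart as well, with a difference of -1.48 ± 0.13 (limma adjusted p = 1.87e-06). Both stress ratios were themselves called in each clone, so that by the labelled dyes Ptges3 rose in the C57BL/6J pool and fell in the DBA/2J pool. The third Ptges3 clone, which was above the empty spots on all 20 arrays, had ratios near 0 in both strains (0.00 and 0.13) and a difference of 0.13 ± 0.14 (limma adjusted p = 0.81). The fourth was above the empty spots on 1 array and had a difference of -0.20 ± 0.41. The clones of this gene thus did not behave alike, and the reason was not tested.

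Adam10 differed in the same direction on 3 of its 4 clones. The first had ratios of 0.77 to 1.51 in C57BL/6J (median 1.22) and of -0.88 to -0.35 in DBA/2J (median -0.69). The second ran from 0.75 to 1.65 (median 1.33) and from -0.91 to -0.20 (median -0.54). In both the lowest C57BL/6J array was above the highest DBA/2J array, and the differences were -1.87 ± 0.13 (limma adjusted p = 5.58e-08) and -1.79 ± 0.15 (limma adjusted p = 1.07e-06). On the third clone the lowest C57BL/6J array was at -0.42, so that the groups overlapped, and the difference was -1.24 ± 0.20 (limma adjusted p = 0.00221). Of these clones the first was above the empty spots on 6 of 10 DBA/2J arrays, the second on 3 and the third on 0. The fourth, above the empty spots on no array, had a difference of -0.29 ± 0.31 and was not called.

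Insig1 was lower in DBA/2J on 2 of 3 clones. The brighter had ratios of 0.46 to 1.86 in C57BL/6J (median 1.10) and of -0.73 to -0.29 in DBA/2J (median -0.55), and the other of 0.31 to 2.11 (median 1.27) and of -0.68 to 0.00 (median -0.36). The groups were apart on both, with differences of -1.65 ± 0.16 (limma adjusted p = 5.53e-06) and -1.70 ± 0.21 (limma adjusted p = 0.000102). Every C57BL/6J array was above 0, and the rise was called in that strain on both clones. The fall in DBA/2J was called on the brighter one only, at -0.51 ± 0.11 (limma adjusted p = 0.0415), against -0.37 ± 0.14 (limma adjusted p = 0.332) on the other. The size of the second clone depended on the dye, at -1.20 where the stressed pool was in Cy5 and -2.21 where it was in Cy3. The third clone was dim, with ratios of -0.24 and -0.22 and a difference of 0.02 ± 0.25.

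**Figure D2:**
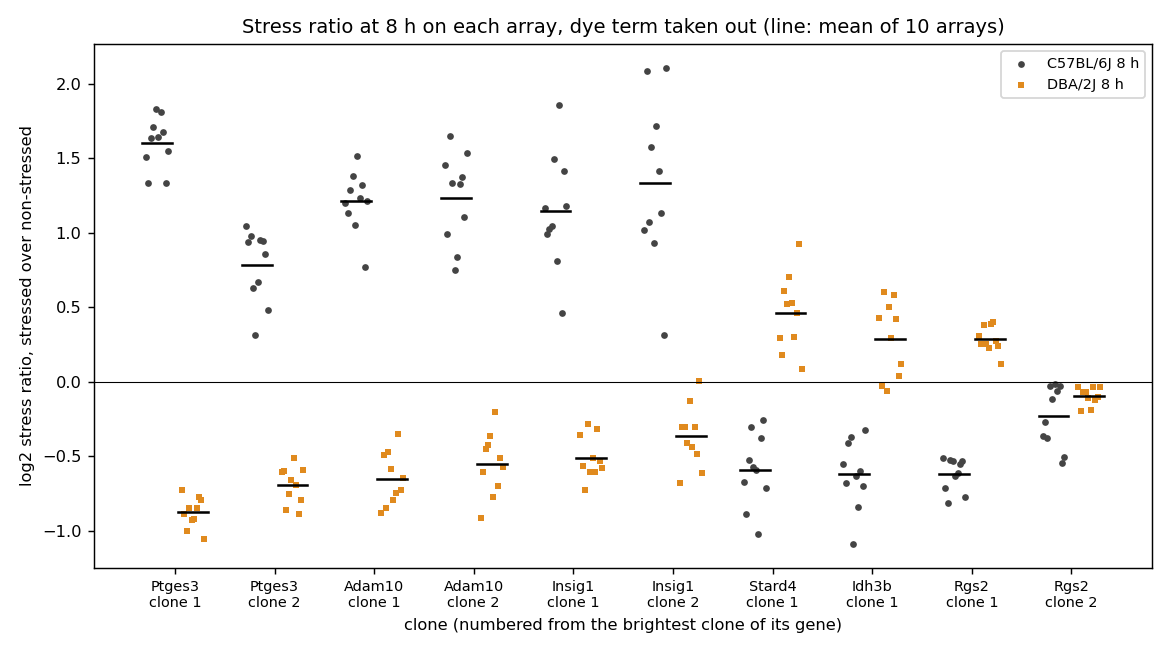
Log2 stress ratio (stressed over non-stressed) on each of the 10 C57BL/6J (grey circles) and 10 DBA/2J (orange squares) arrays at 8 h for 10 clones of 6 genes, after the dye term of the comparison was taken out. Lines are means of 10 arrays. The strains are apart on both plotted clones of Ptges3, Adam10 and Insig1 and, the other way, on Stard4, Idh3b and the brightest Rgs2 clone, whereas the second Rgs2 clone overlaps.

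Among the other leading lower clones, Gpc4, which encodes a glypican that binds growth factors at the cell surface, had ratios of 0.70 to 1.43 in C57BL/6J (median 1.06) and -0.64 to -0.09 in DBA/2J (median -0.29). The groups were apart and the difference was -1.39 ± 0.14 (limma adjusted p = 8.22e-06). Its other clone was dim and gave 0.37 ± 0.26. Bhlhe41, which encodes a repressor of the circadian clock, ran from 0.29 to 1.60 (median 0.94) and from -0.66 to -0.29 (median -0.46). The groups were again apart, at -1.33 ± 0.17 (limma adjusted p = 0.000213), but the size hung on the dye, -0.59 with the stressed pool in Cy5 and -2.07 with it in Cy3. Its other 3 clones had differences of -0.26, -0.44 and -0.19 and were not called. Trpm2, which encodes a cation channel gated by ADP-ribose, ran from -0.14 to 1.58 (median 0.94) and from -0.80 to -0.06 (median -0.55). These groups overlapped, and the difference of -1.34 ± 0.22 (limma adjusted p = 0.00221) rested on a clone above the empty spots on 0 DBA/2J arrays. Pagr1a, which encodes a partner of histone methyltransferase complexes, was above the empty spots on no array, overlapped, and had a difference of -1.37 ± 0.28 (limma adjusted p = 0.0237). Among clones without a symbol, an embryonic cDNA of unknown product had -1.65 ± 0.15 (limma adjusted p = 1.87e-06) and a clone listed only as synaptosomal-associated protein -1.45 ± 0.13 (limma adjusted p = 1.87e-06), both with groups that did not overlap.

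In the higher direction the sizes were smaller and other clones of the same gene often went the other way. Stard4 encodes a carrier of cholesterol between membranes. Its called clone ran from -1.02 to -0.26 in C57BL/6J (median -0.58) and from 0.09 to 0.92 in DBA/2J (median 0.49). All C57BL/6J arrays were below 0 and all DBA/2J arrays above, with a difference of 1.05 ± 0.15 (limma adjusted p = 0.000551), and 0 DBA/2J arrays had the clone above the empty spots. The size was 0.63 with the stressed pool in Cy5 and 1.47 with it in Cy3. Its other 2 clones had differences of -0.20 ± 0.21 and -0.11 ± 0.38. Idh3b, whose enzyme works in the tricarboxylic acid cycle, ran from -1.09 to -0.32 (median -0.62) and from -0.06 to 0.60 (median 0.35). The groups were apart, at 0.91 ± 0.14 (limma adjusted p = 0.00214). Its other clone had the same sign, 0.46 ± 0.15 (limma adjusted p = 0.213). Foxred2, which encodes a flavoprotein of the endoplasmic reticulum involved in degradation of misfolded proteins, ran from -0.56 to -0.20 (median -0.32) and from 0.48 to 0.77 (median 0.61), and with groups far apart the difference was 0.96 ± 0.11 (limma adjusted p = 7.77e-05). Mib2, which encodes a ubiquitin ligase for Notch ligands, had 0.93 ± 0.18 (limma adjusted p = 0.0166) with groups that just did not overlap.

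Rgs2 encodes a regulator that speeds GTP hydrolysis by G protein alpha subunits. Its brightest clone ran from -0.81 to -0.51 in C57BL/6J (median -0.58) and from 0.12 to 0.40 in DBA/2J (median 0.26). These groups were far apart, and the difference was 0.90 ± 0.11 (limma adjusted p = 0.000112), and the size hung on the dye, falling to 0.40 on the arrays with the stressed pool in Cy3. Its other clones, both above the empty spots on all 20 arrays, had differences of 0.14 ± 0.12 and -0.05 ± 0.14 and were not called.

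Mgst1 (microsomal glutathione transferase) at 0.81 ± 0.18, Ptms (parathymosin, an acidic nuclear protein) at 0.80 ± 0.18 and Sike1 (a suppressor of an innate immune kinase) at 0.78 ± 0.13 completed the leading higher clones that were above the empty spots on some array, and the groups overlapped in the first pair. Mgst1, Sike1 and Mib2 had other clones, which were not called and whose values are not given. The called Mgst1 clone was not the brightest of its gene. Wdr90, a centriolar WD repeat gene, at 1.50 ± 0.26 (limma adjusted p = 0.00393) and Ffar2, which encodes a receptor for short-chain fatty acids, at 1.22 ± 0.26 (limma adjusted p = 0.0311) had the largest higher values with a symbol. Both clones overlapped between strains and were above the empty spots on none of the 20 arrays. With 1 array left out in turn, Mgst1 kept its call in 4 of 20 fits, Ptms in 5 and Ffar2 in 8, and the other leading higher clones kept it in all 20.

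The direction of the calls moved with brightness. Of the 131 clones with a mean log2 intensity of 14 or more, 18 were called higher (13.7%) and 0 lower, and their median difference was 0.02. Between 13 and 14 there were 5 of each among 112 clones, and between 12 and 13 there were 5 higher and 18 lower among 329. Below 12 the calls were 19 higher and 67 lower. The 18 brightest higher clones had C57BL/6J ratios between -0.64 and 0.00 and DBA/2J ratios between 0.24 and 0.68. In all, 7 of the 18 had a symbol. These were Rgs2, Foxred2, Glul, Gad1, Gabra6, Nme1 and Ncln, the last named only because it completes this count. Over all clones tested, 0 to 14 spots were saturated on an 8 h array. How many of these belonged to the bright called clones is not given, and a part of saturation in the calls was not tested.

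Among these bright clones, genes with several clones disagreed. Glul encodes glutamine synthetase, an enzyme of astrocytes. Its brightest clone ran from -0.69 to -0.15 in C57BL/6J and from 0.18 to 0.56 in DBA/2J and was called at 0.66 ± 0.12 (limma adjusted p = 0.00799). The next 4 Glul clones, each above the empty spots on all 20 arrays, had differences of -0.46, -0.44, -0.42 and -0.34 with SE of 0.11 to 0.12, and none was called. Gad1 and Gad2 encode the 2 enzymes that make GABA, and their called clones went opposite ways, Gad1 at 0.75 ± 0.12 (limma adjusted p = 0.00252) and Gad2 at -0.92 ± 0.18 (limma adjusted p = 0.0119). The Gad2 clone was above the empty spots on 1 C57BL/6J and 0 DBA/2J arrays. As with Rgs2, the sizes of 3 further bright higher clones hung on the dye. With the stressed pool in Cy3 the differences were 0.39 for Glul, 0.34 for Gad1 and 0.30 for Gabra6, all under the threshold of 0.50, against 0.92, 1.17 and 1.12 with it in Cy5. Gnao1, which encodes the G protein alpha o subunit of neurons, had 0.61 ± 0.12 (limma adjusted p = 0.024) on the called clone and -0.25 ± 0.12 (limma adjusted p = 0.459) on a clone of like brightness.

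Counted over all genes, 39 of the 67 genes with a lower call had another clone brighter than the median clone. These genes had 70 such clones, of which 55 had the same sign, 15 the opposite sign and 6 were called too. For the 29 genes with a higher call, 14 had another clone, and of 25 clones 11 had the same sign, 14 the opposite sign and 0 were called. Apart from Ptges3, Adam10 and Insig1, the genes called on more than 1 clone were Zcchc18, a zinc finger gene (-0.95 ± 0.13 and -0.80 ± 0.13), and Prepl, which encodes a prolyl endopeptidase-like protein (-0.75 ± 0.11 and -0.74 ± 0.11), both picked out after their values were seen. On each of these 4 clones the groups did not overlap. Other genes named in this report were called on 1 of several clones, with the values of the remaining clones not given. Among them are Actb, Canx, Cbx3, Eef1a1, Eif2s2, Fbxw8, Gabra6, Gad2, Hspa4, Rps27, Sptan1, Syt11 and Tcf7l2. The called clones of Canx and Eef1a1 were not the brightest of their genes.

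The part of each strain in the difference varied. Of the 90 lower clones 85 had a ratio above 0 in C57BL/6J and below 0 in DBA/2J, and 5 were above 0 in both. The rise in C57BL/6J was itself called in 44 of the 90 and the fall in DBA/2J in 19, with both in 7 and neither in 34. Of the 47 higher clones 44 were below 0 in C57BL/6J and above 0 in DBA/2J. There the fall in C57BL/6J was called in 13, the rise in DBA/2J in 8, both in 0 and neither in 26. Over all clones 0.613% were called in C57BL/6J, 0.438% higher and 0.175% lower, and 0.399% in DBA/2J, 0.228% higher and 0.171% lower. These ratios enter the difference by which the clones were called, and a call on the difference favours ratios of opposite sign, so these counts are a description.

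**Figure D3:**
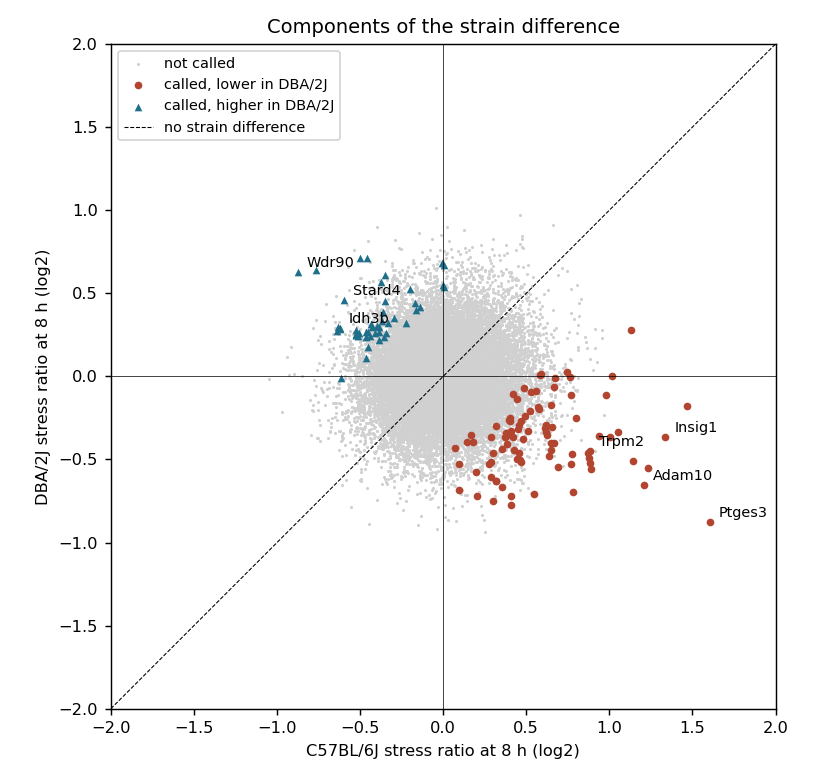
Log2 stress ratio at 8 h in DBA/2J against that in C57BL/6J for 22824 clones. The dashed line is equality of the strains, red circles were called lower and blue triangles higher in DBA/2J. Called clones lie away from the line in the quadrants of opposite signs, 85 of 90 lower clones at the lower right and 44 of 47 higher clones at the upper left.

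At 4 h Ptges3, Adam10 and Insig1 did not show the strain difference of 8 h. Values at 4 h come from the 20 arrays of the earlier pools against the same non-stressed pools, so both times share these pools. The first Ptges3 clone had a difference of 0.26 ± 0.20 at 4 h, and the change from 4 h to 8 h was -2.74 (limma adjusted p = 4.24e-10). For the first Adam10 clone the value was -0.26 at 4 h with a change of -1.61 (limma adjusted p = 4.25e-08), and for the brighter Insig1 clone -0.27 with a change of -1.39 (limma adjusted p = 9.05e-05). In these genes, then, the strain difference at 8 h exceeded that at 4 h by the test of the change itself. The 4 h and 8 h arrays were scanned on different days, with none shared. The study's 4 h and 8 h groups also swam at different times of day. Time after stress cannot be told apart from scan day or from the hour of the swim. Of the leading higher clones Wdr90 (change of 1.03, limma adjusted p = 0.172) and Mib2 (0.83, limma adjusted p = 0.126) did not pass that test. Of the 137 clones 78 passed the test of the change, 54 of the lower and 24 of the higher, each in the direction of its 8 h difference, while 2.8% of all clones passed it, 1.59% lower and 1.21% higher. The 8 h arrays enter this test too, so that it is not independent of the call.

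Some clones turned sign between the times. Stard4 was lower in DBA/2J at 4 h (-1.10 ± 0.18, limma adjusted p = 0.00227) and higher at 8 h, a change of 2.15 (limma adjusted p = 6.73e-08). Sike1 went from -0.59 (limma adjusted p = 0.00987) to 0.78, and the called Gnao1 clone from -0.65 (limma adjusted p = 0.00426) to 0.61. Rps27, a protein of the small ribosomal subunit, went from -0.87 to 0.59. Canx, which encodes the chaperone calnexin, went the opposite way, from 0.78 to -0.78. Actb (beta-actin) was called lower at both times, at -1.01 ± 0.12 and -0.86 ± 0.11, and its change was 0.15 (limma adjusted p = 0.712). At 4 h 2.34% of all clones were called, 1.19% lower and 1.16% higher.

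**Figure D4:**
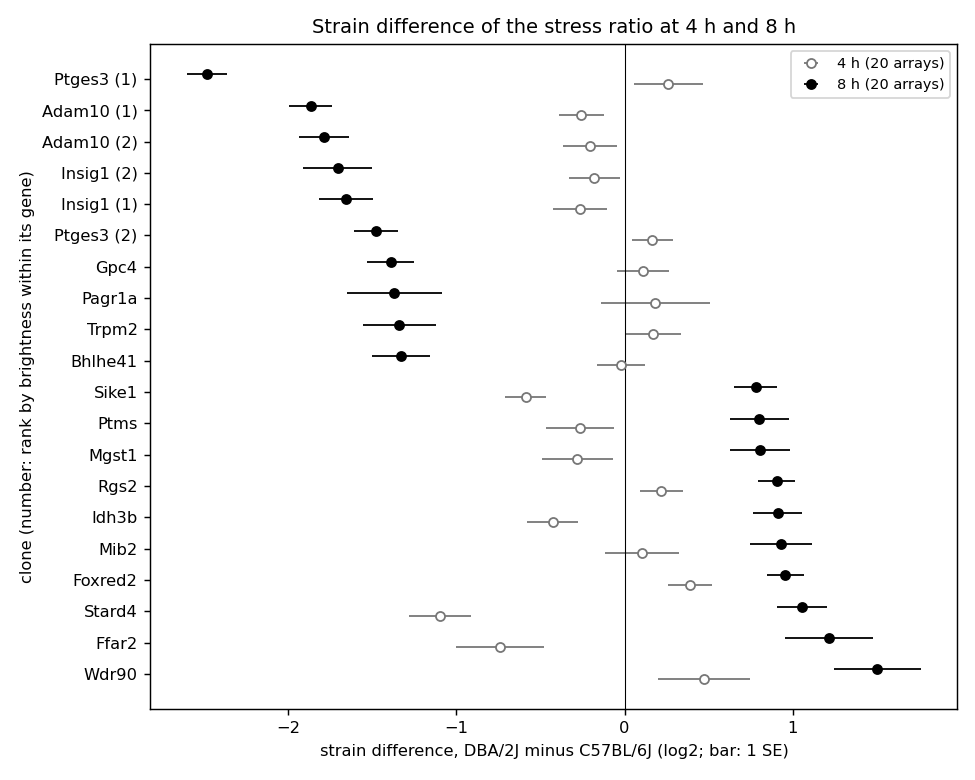
Strain difference of the stress ratio (log2, DBA/2J minus C57BL/6J, bars 1 SE) at 4 h (open circles) and 8 h (filled circles) for the 10 lowest and 10 highest called clones with a symbol. The 10 lower clones lie between -0.27 and 0.26 at 4 h, and Stard4 lies at -1.10 at 4 h and 1.05 at 8 h.

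The strain ratio without stress was measured on 10 further arrays of the same non-stressed pools. Which strain had the higher level is given here by the labelled dyes only, whose direction is not settled. Adding the 8 h difference to it gives the ratio of the 8 h pools, which was not hybridised directly. Ptges3 (first clone) was higher in DBA/2J without stress, at 0.64 ± 0.13 (limma adjusted p = 0.0115), and lower by the derived ratio 8 h after stress, at -1.84 ± 0.15 (limma adjusted p = 4.57e-09). Adam10 (first clone) likewise went from 0.75 (limma adjusted p = 0.00439) to -1.12 (limma adjusted p = 4.39e-05). Insig1 (brighter clone) went from 0.98 (limma adjusted p = 0.00363) to -0.67 (limma adjusted p = 0.113), so that the derived ratio was not called. Foxred2 and Stard4 were higher in DBA/2J without stress, at 0.77 and 0.61, and further apart afterwards, at 1.72 and 1.66. Idh3b was at -0.08 without stress and 0.83 after it. Of the 90 lower clones 26 were called higher and 5 lower in DBA/2J without stress, and 30 lower and 0 higher by the derived ratio. Of the 47 higher clones 7 were called higher and 2 lower without stress, and 26 higher and 1 lower by the derived ratio. Over all clones 3.62% were called without stress, 1.61% higher and 2.02% lower, and 2.8% by the derived ratio, 1.17% higher and 1.63% lower. The non-stressed pools enter both the strain ratio and the 8 h difference, with opposite sign, and the derived ratio contains the difference itself.

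**Figure D5:**
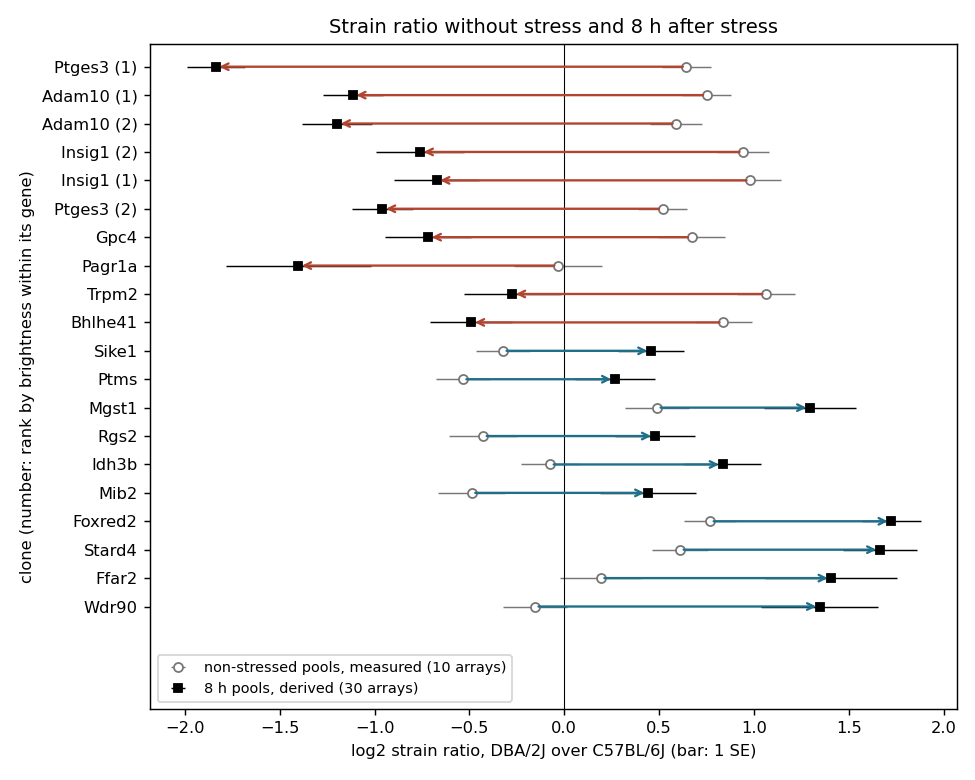
Log2 strain ratio (DBA/2J over C57BL/6J, bars 1 SE) of the non-stressed pools (open circles, measured on 10 arrays) and of the 8 h pools (filled squares, derived from 30 arrays) for the 10 lowest and 10 highest called clones with a symbol. Arrows run from non-stressed to 8 h. Both plotted clones of Ptges3, Adam10 and Insig1 pass from above 0 to below 0, while Foxred2 and Stard4 start above 0 and move further up.

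Lists of genes by function held few calls each, and their median differences lay between -0.09 and 0.15, against 0.00 over all clones (DBA/2J minus C57BL/6J). Among clones with a symbol 1.11% were called. The sterol list, 57 clones of synthesis enzymes and their regulators, held 3 calls, both Insig1 clones lower and Stard4 higher, with a median of -0.03. The list of the amyloid precursor protein and its secretases, 53 clones, held the 3 Adam10 calls and a median of -0.09. The brightest clone of App itself had -0.07 ± 0.12 with ratios of -0.42 in C57BL/6J and -0.49 in DBA/2J, and was not called. The other App clones were not called either, and their values are not given. Glucocorticoid receptor targets and co-chaperones, 29 clones, held both Ptges3 calls. Among 64 clones of heat shock proteins and chaperones Canx (-0.78 ± 0.12) and Hspa4 (-0.58 ± 0.13) were lower. Rgs2 and Gnao1 were the calls among 68 clones of G proteins and their regulators, and Spry2, an inhibitor of growth factor signalling, was the call among 91 clones of immediate early genes and the MAP kinase cascade, at -1.05 ± 0.17 (limma adjusted p = 0.00267).

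The cytosolic ribosome list was shifted most among the lists of over 100 clones. Its 122 clones had a median difference of 0.15 with 32.0% below 0, against 49.4% of all clones, yet only 3 were called. Among them Rpl36al was lower (-0.53 ± 0.12) and Rps27 higher (0.59 ± 0.14). The mitochondrial ribosome (88 clones) and oxidative phosphorylation (99 clones) held 0 calls with medians of 0.04 and 0.02. Of the clones of 95 cytoskeletal genes 5 were called (3.09%). Dpysl2, which guides axon growth, ran from 0.72 to 1.23 in C57BL/6J and from -0.79 to -0.09 in DBA/2J and had -1.30 ± 0.13 (limma adjusted p = 6.71e-06), while its brightest clone had -0.24 ± 0.12. Actb and Myo5a, a motor of vesicle transport (-0.79 ± 0.17), were lower too, and Sptan1 (alpha-spectrin, 0.63 ± 0.14) and Myo1a (an unconventional myosin, 0.57 ± 0.12) higher. Among 83 chromatin clones Set (-1.30 ± 0.23), Cbx3 (-0.84 ± 0.13) and Hmgn1 (-0.78 ± 0.13) were lower. The called Set clone overlapped between strains, and its 4 brighter clones had -0.35, -0.23, -0.03 and -0.40. The other 2 bright Hmgn1 clones had -0.62 and -0.58 with limma adjusted p of 0.059 and 0.11.

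Further single calls came from the ubiquitin system (249 clones, Usp54 at -0.96 and Fbxw8 at 0.77), translation factors (1.98% of the clones of 60 genes, Eef1a1 at -0.54 and Eif2s2 at 0.60), ion channels (86 clones, Trpm2 and, at 0.71, the GABA receptor subunit gene Gabra6) and vesicle release (87 clones, Syt11 at -0.57). RNA splicing (225 clones), mitosis and DNA repair (55), secretory granules (23) and the receptors of the stress axis (13) held 0 calls by limma. The sizes of some calls hung on the dye. With the stressed pool in Cy5 and in Cy3 they were -0.63 and -1.47 for Spry2, -0.54 and -1.13 for Cbx3, -0.90 and -0.26 for Hspa4, -0.26 and -0.88 for Syt11, -0.35 and -0.72 for Eef1a1, and 0.94 and 0.32 for Sptan1. Several calls were also close to the threshold. Of 20 fits that each left out 1 array, Rpl36al and Rps27 kept the call in 1, Eef1a1 in 2, Eif2s2 and Syt11 in 3, Hspa4 in 6, Sptan1 in 8 and Myo5a in 9.

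The genes that the study picked as regulated at 8 h were measured by 80 clones of 25 genes. Of these clones 16 were called (20%), 12 lower and 4 higher, with a median of -0.21. The genes were picked on the same samples, so this share is no independent evidence. Besides the genes above, Nfia, a transcription factor of glial development, was lower at -1.07 ± 0.17 (limma adjusted p = 0.00221), with its other 2 clones at -0.38 and -0.63. Nme1, a nucleoside diphosphate kinase, was higher at 0.77 ± 0.11 (limma adjusted p = 0.00114), on one of the bright clones. The genes of the set without a call included Chd4, Srpk2, Luc7l2, Zfand5 and Ptp4a2, whose brightest clones had differences of -0.01, -0.04, -0.24, 0.17 and -0.18. Over all 64 clones of the set that were not called the differences ran from -0.69 (the second Ptp4a2 clone, limma adjusted p = 0.0633) to 0.88 (a Zfand5 clone above the empty spots on no array, limma adjusted p = 0.148).

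Cell type markers were uneven on this platform. The PVN neuron markers Avp, Oxt, Sst and Trh had 5 clones, with differences of 0.04 to 0.33, 0 called, and 0 above the empty spots on at least 5 arrays of each comparison. The nearest was an Sst clone, above them on 5 C57BL/6J and 0 DBA/2J arrays. Its mean log2 intensity was 9.7, with 9.3 for Avp and Trh and 7.3 for Oxt, against a median of 8.16 over all clones. Few clones of any kind passed the empty spots on the DBA/2J arrays, so this cut does not show whether these neuropeptides were near background. Of the 7 PVN neuron markers looked for, 4 were measured, and Crh, Sim1 and Otp were not. The wider list of PVN neuropeptides and transcription factors held 16 clones, 0 calls and a median of 0.11. Oligodendrocyte markers had 27 clones of 7 genes, a median of -0.01 and 1 call. Astrocyte markers had 19 clones with a median of -0.15 and a range of -0.47 to 0.66, the last being the called Glul clone. Endothelial and mural markers had 9 clones with a median of -0.53 and a range of -0.95 to 0.21, microglia markers 7 clones with a median of -0.08, and blood markers 5 clones with a median of 0.15. These 3 sets had 0 calls and 0 clones above the empty spots in both comparisons. Tcf7l2, a transcription factor strong in thalamus, was the only call among 24 clones of thalamic markers, at -0.80 ± 0.12 (limma adjusted p = 0.00126). In pooled tissue, fewer cells of a type and less RNA per cell cannot be told apart, and the part of cell makeup in the strain difference was not tested.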

How the data were processed

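Two-colour cDNA arrays of PVN RNA were used, 20 of 50 for the strain difference, with the 20 arrays at 4 h and the 10 of the non-stressed strains for values set beside it. The labels gave each array its comparison and dye orientation.

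In the deposited spot files the authors give, for each dye, the scanned intensity and the local background of 24192 spots, quantified with fixed circles at fixed gain and not background subtracted. The columns of the second channel, recorded as other units in the inventory of the deposited files only because they start lower in each file, hold the same kind of intensity. On 3 of the 20 arrays at 8 h the first channel was Cy3, and dyes were read from the image names. The deposited table of the authors holds processed log2 ratios of 19047 spots, with the base found from the values and an unstated filter, and served as an alternative.

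Background was corrected by normexp (offset 50) and ratios were normalized by global loess within arrays, control spots at weight 0. limma 3.58.1 in R 4.3.3 (lmFit, eBayes) fitted a stress ratio and a dye term for each comparison. The Benjamini-Hochberg adjustment ran over 22824 clones, without 1368 control spots. Calls needed the fold threshold of the study's methods, 0.50 on the log2 scale, and an adjusted p under 0.05. Ratios given per array had the dye term of their comparison taken out. The number of arrays limits the precision. The fit was run on data simulated from its own model with independent errors, a check of the code and not of the calls. Python 3.11.15, pandas 2.3.3, numpy 2.4.6 and matplotlib 3.10.9 made the summaries.

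Symbols were assigned to 9208 clones of 6206 genes from the names on the array and RefSeq, 1391 of them through a table of full gene names, and 8306 clones with a gene name stayed without one. Clones of a gene are numbered from the brightest. Named genes were, at each end, the 10 most extreme called clones that had a symbol and kept their sign in either dye orientation, every clone of the genes that the study tabulated or drew for 8 h, and up to 4 called clones of each of the other lists. Exceptions are marked, and some called clones are not reported here by name. The members and lists were chosen with earlier results of these data known. Promoter sequences are from RefSeq (GRCm38.p6). The hormone, PCR and in situ measurements of the study were not analysed here. Alternatives were other background and normalization settings, dye models, single dye orientations, other sets of arrays and thresholds, the methods' t-test, blocks for scan day and replicate number, and each array left out in turn.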

Additional observations from a re-analysis of the deposited data

Results flagged for a closer look

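For 39 of 53 called clones, those named by the rule and those of the genes picked out afterwards, the strain difference at 8 h differed from that at 4 h by limma over 40 arrays (0.50 or more on the log2 scale and adjusted p under 0.05 over all clones). Over all clones 2.8% passed this test. The 53 clones were called on the same 8 h arrays that enter it, so that the test is not independent of the call and the count is a description. The values are log2 differences, 8 h minus 4 h, of DBA/2J minus C57BL/6J. They were -2.74 and -1.64 for Ptges3, -1.61, -1.58 and -1.45 for Adam10, -1.39 and -1.52 for Insig1, -1.55 for Pagr1a, -1.55 for Canx, -1.51 for Trpm2, -1.50 for Gpc4, -1.49 for Usp54, -1.31 for Bhlhe41, -1.30 for Cd200, -1.27 for Gad2, -1.26 for Myo5a, -1.09 for Nfia, -1.06 and -1.11 for Prepl, -0.94 for Spry2, -0.87 for Tspan2, -0.85 for Eef1a1, -0.77 for Hmgn1, -0.75 for 1 clone of Zcchc18 and -0.60 for Tcf7l2. In the other direction they were 2.15 for Stard4, 1.96 for Ffar2, 1.46 for Rps27, 1.37 for Sike1, 1.34 for Idh3b, 1.25 for Gnao1, 1.09 for Mgst1, 1.07 for Ptms, 0.94 for Gad1, 0.69 for Rgs2, 0.60 for Fbxw8, 0.58 for Ncln, and 0.57 for Foxred2 and Glul. The 4 h and 8 h arrays of a strain share its non-stressed pool, and they were scanned on different days.

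In these 53 clones, 106 sets of 10 arrays were searched for a single array far from the rest, and 1 was found at Dixon's 95% limit, where chance gives about 1 in 20. It was C57BL/6J array 8 of Usp54, at a stress ratio of -0.30, with the other arrays at 0.29 to 0.96.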

How the results depend on the processing

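With 1 array left out in turn 100 to 130 clones were called, of which 96 to 112 were among the 137, and in no setting did any of the 137 change sign. Print-tip loess, scaling, median centring, leaving the background in, 1 shared dye term, array weights, the adjusted p alone, the authors' values, the methods' t-test with the fold and adjustment, and the scan day as a random block gave 120 to 196 calls. The 196 came with the scan day block, whose consensus correlation was -0.049. The strains shared no scan day, so that this block cannot separate day from strain. With a replicate block the count was 139 (consensus correlation 0.005). The replicate numbers do not pair the arrays, since same-numbered arrays deviated with correlations of -0.01 to 0.01 and 1 of 10 was closest to its own number. Fewer calls were made without a dye term (85), with only the stressed pool in Cy5 (5, all among the 137) or in Cy3 (40, of which 39 were lower and 1 higher and 15 among the 137), and with the 5 arrays of an orientation averaged (1), each of the last 3 with fewer values per clone. More were made with a filter on dim clones (292 of the 11412 clones left), an intensity trend in eBayes (340), all 50 arrays (216) or the 40 stress arrays (231) in one fit, the fold alone (2659) and the methods' t-test with the fold and without adjustment (1253). In alternatives chosen after seeing the data, 74 clones were called without the 3 arrays whose first channel was Cy3. Among the 1340 clones above the empty spots on at least 5 arrays of each comparison 108 were called, 48 higher and 60 lower. Of the 137 called clones only 70 were among these 1340, and the rest could not be tested in that setting. Why the counts moved was not tested in any of these settings.

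Calls of named clones lost with single arrays were those given with the results, and Cd200 kept its call in 3 of 20 such fits, Tspan2 in 2, Gnao1 in 16 (lost without C57BL/6J array 8 or DBA/2J array 1, 6 or 10) and Pagr1a in 17 (lost without DBA/2J array 2, 3 or 6). Clones at the level of the empty spots, most of those on the DBA/2J arrays, give ratios near background. All p-values compare single pools.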

Other observations

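Of 22 clones of microglia and innate immune genes 1 was called, Cd200, a membrane protein of neurons that restrains microglia, at a strain difference of -0.89 ± 0.19 (log2, DBA/2J minus C57BL/6J, limma adjusted p = 0.0339). Its ratios ran from -0.66 to 0.91 in C57BL/6J and from -0.91 to -0.38 in DBA/2J, so that the strains overlapped, and the clone was above the empty spots on no array. Tspan2, a tetraspanin of myelinating cells, was called on 1 of 4 clones at -0.65 ± 0.15 (limma adjusted p = 0.0412). Of its other clones 2 had -0.47 and -0.43 and the dimmest 0.33, and none of these was called.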
